A study of Mus musculus with 6 samples.

Results

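Translation of an mRNA begins when initiation factors (eIFs) bring the initiator tRNA and the small ribosomal subunit to its capped end, and it proceeds when elongation factors (eEFs) deliver aminoacyl-tRNAs and move the ribosome along. In growing tumour cells this machinery consumes much of the cell's energy, and it is controlled mainly by phosphorylation of eIF2, by proteins that hold the cap-binding factor eIF4E, and by phosphorylation of eEF2. The mRNAs of this machinery were examined in 4T1 cells, a mouse mammary carcinoma line kept in DMEM with serum. A group of 3 libraries came from cells carrying a pLVX plasmid that expresses LINC01133, a human long noncoding RNA, and 3 control libraries came from cells with the empty pLVX vector. The labels call the controls WT, and they state no age, treatment or time. The sources used here do not give whether the cells were clones or pools, or whether the 2 groups share a parental culture, so a difference between the groups is not by itself an effect of LINC01133.

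Members were all genes whose symbol begins with Eif1 to Eif6, Eef1 or Eef2, without the eIF2 kinases (Eif2ak) and the eIF4E-binding proteins (Eif4ebp), and with at least 1 count. There were 57 of them among 22697 rows with a count, and 52 had enough reads to be tested. The symbols also take in genes that are not factors themselves, such as the kinase and methyltransferase genes Eef2k, Eef2kmt and Eef1akmt1 and the eIF4E transporter gene Eif4enif1. Levels are CPM, counts brought to a common library total, on library sizes scaled by TMM, a factor that sets the bulk of genes equal. A gene is called when edgeR's quasi-likelihood test gave a Benjamini-Hochberg adjusted p under 0.05 over all 14116 genes tested. Where levels of different genes are compared, CPM was divided by the deposited gene length in kilobases.

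Libraries held 26719396 to 33877549 counts with LINC01133 and 25521469 to 27035127 counts in the controls. The ribosomal RNA precursor Rn45s took 21.03% to 23.0% of counts with LINC01133 and 25.4% to 27.9% in the controls. Of the markers of mammary epithelium and carcinoma, Krt8 was found at 214 to 220 CPM with LINC01133 and at 141 to 148 CPM in the controls, but Epcam stood at 0.363 to 1.05 CPM with LINC01133 and had no read in the controls, and Cdh1 stayed at or under 1.52 CPM in every library. Krt18 stood at 154 to 163 CPM with LINC01133 and 1.83 to 2.25 CPM in the controls and made most of the difference in the summed list, while Krt7 ran the other way, at 2.24 to 2.43 CPM with LINC01133 and 7.08 to 8.36 CPM in the controls, as did Krt5 and Krt14 at under 2 CPM. The 8 markers of that list summed to 384 to 392.2 CPM with LINC01133 and to 155 to 164 CPM in the controls. The 6 fibroblast markers summed to 19.4 to 20.1 CPM with LINC01133 and to 169 to 175 CPM in the controls, mostly from Pdgfrb (0.577 to 1.06 CPM with LINC01133 and 104 to 109 CPM in the controls) and Pdgfra, while Dcn stood at 3.47 to 4.55 CPM with LINC01133 and at most at 0.0410 CPM in the controls. Among leukocyte markers, Cd68 stood at 10.04 to 10.5 CPM with LINC01133 and 2.01 to 2.58 CPM in the controls, and Itgam at 6.32 to 7.44 CPM with LINC01133 and 1.07 to 1.39 CPM in the controls. Ptprc stayed at or under 0.212 CPM in every library, and Adgre1 and Cd3e were at 0 in the controls. The 4 endothelial markers summed to 15.1 to 15.7 CPM with LINC01133 and to 0.250 to 0.854 CPM in the controls, and the 3 adipocyte markers to at most 0.552 CPM in any library. The part of these differences in the results below was not tested. In bulk RNA, fewer cells of a type and less RNA per cell cannot be told apart.

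Translation factor mRNAs differed between the groups about as often as other genes, but by less. Of the 52 tested members 44 were called (84.6%), against 84.9% of all genes tested. The members called higher numbered 24 (background 44.5%) and those called lower 20 (background 40.5%). No member was called and at least 2-fold higher, against 20.3% of all genes, and 4 were called and at least 2-fold lower, against 13.9%. With library size alone 2 members, Eif3a (1.14) and Eif2b4 (1.03), were at least 2-fold higher, and 1, Eef1a2, at least 2-fold lower. The backgrounds of 20.3% and 13.9% are TMM values, and none at this size was computed with library size alone. The 4 lower with TMM were Eef2, which encodes the factor that moves the ribosome by a codon, its kinase gene Eef2k, the initiator tRNA carrier gene Eif2a and the tissue-restricted Eef1a2. The median absolute log2 fold change was 0.32 over the members and 0.63 over all genes tested. Translation factor mRNAs are abundant, and where the mean level reached 10 CPM, 3 of 50 members (6%) against 19.5% of all such genes were called and at least 2-fold apart. At this level the median absolute log2 fold change was 0.32 over the members and 0.47 over all such genes, a narrower gap. The LINC01133 and control values did not overlap in 44 tested members, against 85% of all genes tested.

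As shares of raw counts, the 2 most abundant members moved against the sum of the others. All 57 members together took 1.82% ± 0.0245 of counts with LINC01133 and 1.96% ± 0.0279 in the controls (SD, n = 3 each). Eef1a1 and Eef2 together took 0.525% ± 0.00476 with LINC01133 and 0.855% ± 0.0108 in the controls. The other 55 members moved the other way, with 1.29% ± 0.0201 of counts with LINC01133 and 1.11% ± 0.0207 in the controls. With Rn45s left out of the total the 57 members took 2.33% ± 0.00524 with LINC01133 and 2.68% ± 0.0178 in the controls.

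The split of calls depended on the scaling, for the members as for all genes. Scaling by library size alone raised the median over all genes by 0.24 on the log2 scale relative to TMM, and the members split into 33 called higher (background 55.6%) and 16 called lower (background 30%), so that 67.3% of member calls were higher against 54.5% with TMM. Over all genes this share was 65.0% with library size alone and 52.4% with TMM. All 8 members not called with TMM were called higher with library size alone, and 7 of them with upper quartile. Directions below are relative to TMM, and the called members whose direction turned with library size alone were Eif3h, Eif4g1 and Eif4g3.

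**Figure D1:**
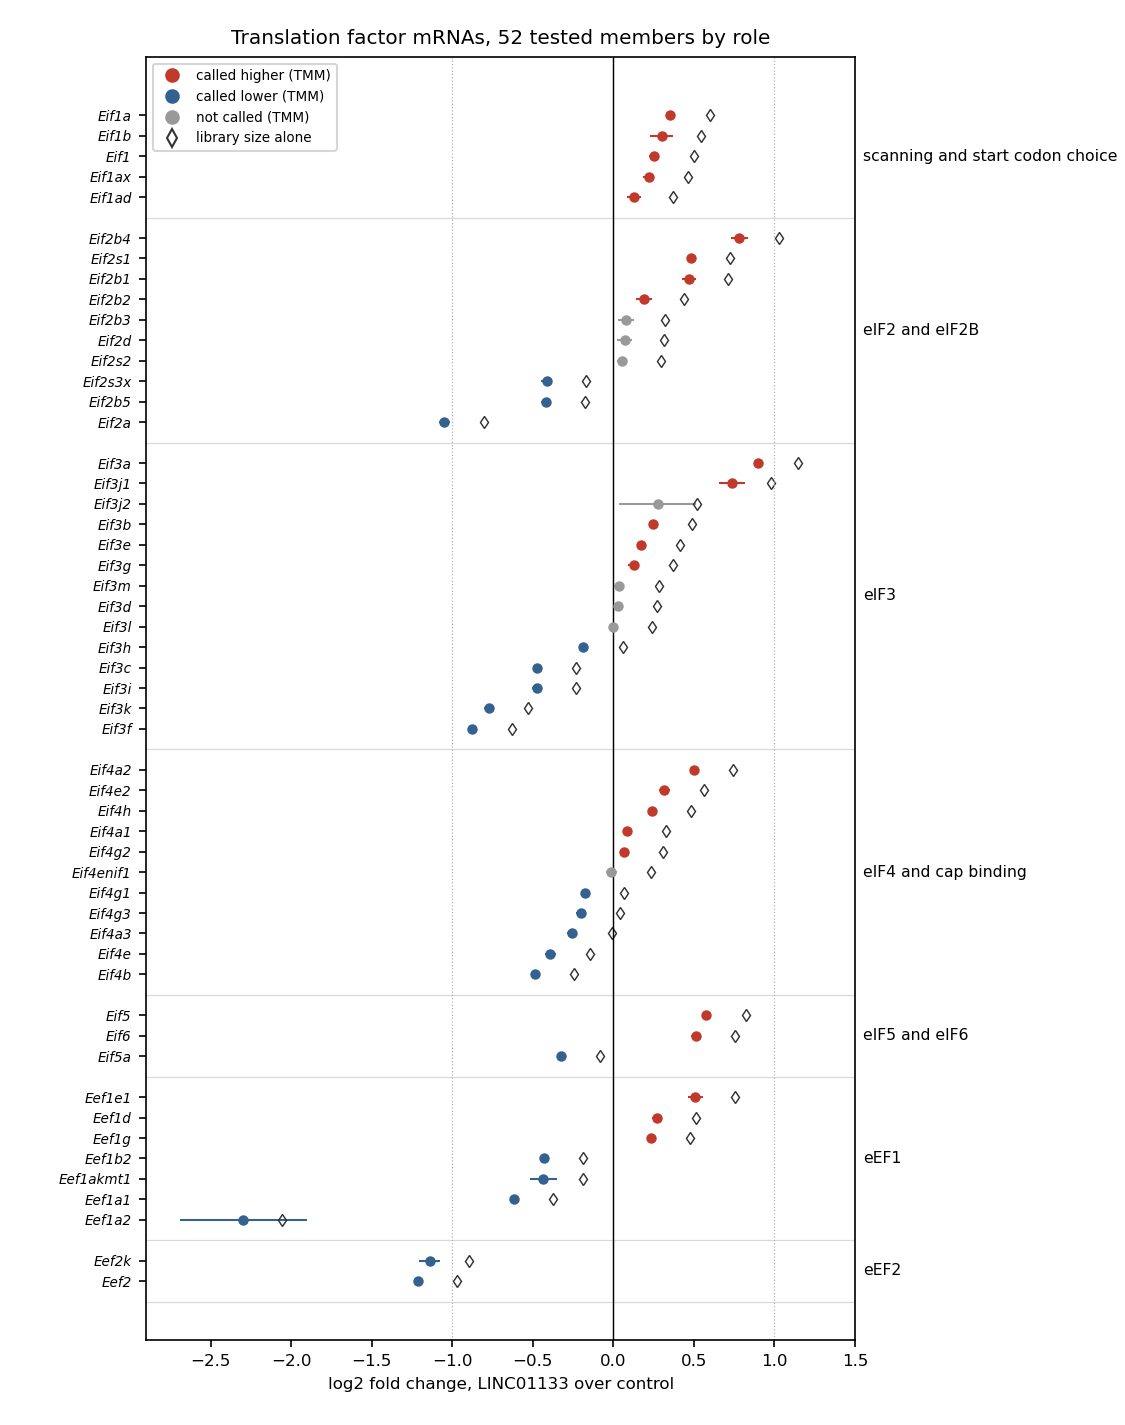
Log2 fold change (LINC01133 over control) of the 52 tested members by role; filled points are TMM values with their SE, coloured by call, and open diamonds are values with library size alone. The members whose symbol begins with Eif1 all lie to the right of 0, and Eef2, Eef2k, Eif2a and Eef1a2 lie beyond -1. The diamonds sit about 0.24 to the right of the filled points.

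The promoter sequences of the members show which of them share start-site features that are known from translation genes. An E-box, CACGTG, is the site bound by MYC and related factors, and a 5′ terminal oligopyrimidine tract at the start of an mRNA is the feature by which mTORC1 controls translation of ribosomal protein and elongation factor mRNAs. RefSeq windows of GRCm38.p6, from 250 bases before to 50 bases after each annotated start, were matched by symbol for 44 of the 57 members. CACGTG, which reads the same on both strands, was in a window of 12 of 44 members (27.3%), against 8.09% of all 27025 genes with a window. It was found in 7 of 17 members called lower and in 4 of 18 called higher, so windows of genes of both directions held the motif. In Eif3a, called higher, it lay after the start. The 4 stretches below hold an E-box before the start (capitals); Eef2 and Eif3f were lower, and Eif4h and Eif4a1 were higher.
Eef2, chr10:81176561-81176620, plus strand: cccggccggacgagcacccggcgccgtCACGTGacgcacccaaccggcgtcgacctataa
Eif3f, chr7:108934320-108934379, plus strand: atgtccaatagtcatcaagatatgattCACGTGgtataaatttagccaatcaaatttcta
Eif4h, chr5:134639473-134639532, minus strand: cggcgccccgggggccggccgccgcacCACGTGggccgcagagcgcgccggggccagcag
Eif4a1, chr11:69672580-69672639, minus strand: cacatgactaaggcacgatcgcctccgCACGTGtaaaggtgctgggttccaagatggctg

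A pyrimidine tract was searched as a run of at least 8 letters C or T that begins with C and starts within 20 bases of the RefSeq start, on the transcribed strand only. It was found in 12 of 44 members (27.3%), against 15.7% of all genes with a window. Among members called lower 7 of 17 held one, among members called higher 1 of 18 did, Eif2b2, and among members not called 3 of 6 did. The same split was not computed over all genes tested, so it has no background by direction. The counts are small, and RefSeq starts can be off by some bases, so that a tract may lie outside the searched place. The 3 stretches below run from 20 bases before to 20 bases after the RefSeq start and show the tract in capitals in members called lower.
Eef1a1, chr9:78481705-78481744, minus strand: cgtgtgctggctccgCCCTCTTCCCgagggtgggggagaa
Eif3f, chr7:108934395-108934434, plus strand: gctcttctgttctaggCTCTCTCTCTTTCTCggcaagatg
Eif2s3x, chrX:94212632-94212671, minus strand: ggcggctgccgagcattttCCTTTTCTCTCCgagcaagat
A list of 9 factor mRNAs known for such a tract held Eef1a1, Eef1b2, Eef1d, Eef1g, Eef2, Eif3e, Eif3f, Eif3h and Eif4b. Of these, 6 were lower (background 40.5%) and 3 higher (background 44.5%). Their median log2 fold change was -0.43, against 0.05 over all genes tested. Of the 5 list genes with a RefSeq window, Eef1a1 and Eif3f held a tract by the search above, and none was found at the searched place in Eef2, Eef1b2 and Eif4b. With library size alone the list had 5 lower (background 30%) and 3 higher (background 55.6%). Cytosolic ribosomal protein mRNAs, most of which carry such tracts, were lower in 75 of 82 tested genes (background 40.5%) and higher in 3 (background 44.5%), with a median of -0.64. With library size alone 66 were lower (background 30%) and 4 higher (background 55.6%), with a median of -0.39.

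The members grouped by symbol (Eif1) under scanning and start codon choice were all higher. eIF1 and eIF1A hold the small subunit in an open, scanning state until the start codon is met. All 5 tested members whose symbol begins with Eif1 were called higher (background 44.5%), by 1.09-fold to 1.28-fold. Their groups did not overlap, as was so for 85% of all genes tested. Eif1a (uc008evs.2, chromosome 18, 46597701 to 46616456 on mm10) stood at 253, 247 and 261 CPM with LINC01133, against 200, 199.8 and 195 CPM in the controls (log2 fold change 0.35, SE 0.0251, adjusted p = 2e-27). Its X-linked homologue Eif1ax stood at 89.4, 92.5 and 93.6 CPM with LINC01133 and at 83.1, 75.7 and 77.8 CPM in the controls (0.22, SE 0.0347, adjusted p = 6.3e-09). Both genes thus moved the same way, and Eif1a held 47.1% ± 0.742 of the reads per kilobase of this pair with LINC01133 and 44.8% ± 1.12 in the controls.

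Eif1, which encodes the start codon gatekeeper itself, stood at 132, 130.0 and 132 CPM with LINC01133 and at 103, 117 and 110.0 CPM in the controls (0.26, SE 0.0311, adjusted p = 5e-13). Its homologue Eif1b was lower in level, at 18.9, 18.8 and 18.9 CPM with LINC01133 and 15.8, 14.0 and 16.2 CPM in the controls (0.30). The control values of both genes spread more widely than those with LINC01133, and the share of Eif1 in the pair was 83.5% ± 0.0785 with LINC01133 and 83.9% ± 1.76 in the controls, which overlapped. Eif1ad was the least changed of the 5, at 51.3, 51.6 and 52.9 CPM with LINC01133 and 46.5, 47.0 and 49.1 CPM in the controls (0.13, adjusted p = 0.0051). Its exons share 15.3% of their bases with those of Banf1 on the opposite strand, which was lower (-0.71), and whether counting used the strand is not given in the sources used here.

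eIF2 carries the initiator tRNA, and its 3 subunit mRNAs did not move together. Eif2s1 encodes the alpha subunit, the one that stress kinases phosphorylate. It stood at 183 ± 0.759 CPM with LINC01133 and 131 ± 2.53 CPM in the controls (0.48, SE 0.0276, adjusted p = 2.9e-35). Eif2s2, for the beta subunit, was not called with TMM, at 116 ± 1.06 CPM with LINC01133 and 112 ± 4.18 CPM in the controls (0.05, SE 0.0307, adjusted p = 0.11), but it was called higher with RLE (0.06), upper quartile (0.15), the CPM filter (0.08) and library size alone (0.30). Eif2s3x, for the gamma subunit that binds GTP and tRNA, stood at 78.2, 75.9 and 75.6 CPM with LINC01133 and at 104, 101 and 102 CPM in the controls (-0.41, SE 0.0334, adjusted p = 2.9e-23). The ratio of Eif2s1 to Eif2s3x reads per kilobase, which no scaling of the libraries can change, was 4.37 ± 0.0816 with LINC01133 and 2.35 ± 0.0795 in the controls (SD, n = 3 each). The Y-linked copy Eif2s3y had 22 counts over the LINC01133 libraries and 33 over the controls, under the count filter. How reads that match both Eif2s3x and Eif2s3y were assigned is not known here, so these counts are uncertain.

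eIF2B is the exchange factor that recharges eIF2 with GTP, and phosphorylated eIF2 blocks it. Of its 5 subunits 3 were called higher (60%, background 44.5%), 1 lower (20%, background 40.5%) and 1 not called. Eif2b4, for the delta subunit (uc008wxk.2, chromosome 5, 31187558 to 31193430), stood at 41.8, 43.1 and 40.6 CPM with LINC01133, against 24.3, 24.7 and 23.98 CPM in the controls (0.78, SE 0.0530, adjusted p = 5.8e-29). Its exons share 7.85% of their bases with Snx17 on the opposite strand, which was higher by 0.26 on the log2 scale. Eif2b1 and Eif2b2, for the alpha and beta subunits, were higher by 0.47 and 0.19 on the log2 scale, and Eif2b3, for the gamma subunit, was not called (0.08, SE 0.0488). Eif2b5, for the catalytic epsilon subunit, was the one that fell, to 120.9 ± 0.872 CPM with LINC01133 against 162 ± 1.83 CPM in the controls (-0.42, adjusted p = 3.8e-29). The ratio of Eif2b4 to Eif2b5 reads per kilobase was 0.421 ± 0.0133 with LINC01133 and 0.183 ± 0.00261 in the controls.

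Eif2a, a protein separate from eIF2 that can bring initiator tRNA to the ribosome in a GTP-independent way (uc008phw.2, chromosome 3, 58525821 to 58557501), had the lowest log2 fold change of the initiation factors. It stood at 60.9, 62.0 and 64.3 CPM with LINC01133 and at 132, 130.5 and 125 CPM in the controls, 2.07-fold lower (-1.05, SE 0.0334, adjusted p = 1.6e-61). Eif2d, another such factor, was not called, at 47.4 ± 1.495 CPM with LINC01133 and 45.2 ± 1.04 CPM in the controls (0.07, SE 0.0452, adjusted p = 0.14). With library size alone Eif2a kept its direction but was no longer 2-fold lower (-0.81).

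eIF3 is the large scaffold that joins the small ribosomal subunit to the mRNA, and its mRNAs moved in both directions: of 14 tested members 5 were higher (35.7%, background 44.5%), 5 lower (35.7%, background 40.5%) and 4 not called, so the counts alone do not set it apart from other genes. Eif3a, for the largest subunit (uc008ibx.1, chromosome 19, 60761117 to 60790658), had the highest log2 fold change of all members. It stood at 440.4, 437 and 438 CPM with LINC01133 and at 229, 242 and 234 CPM in the controls, 1.87-fold higher (0.90, SE 0.0233, adjusted p = 6e-72). Eif3f (uc009jdc.2, chromosome 7, 108934417 to 108942951), whose promoter is printed above, stood at 164, 161 and 162 CPM with LINC01133 and at 296, 298 and 298 CPM in the controls, 1.83-fold lower (-0.88, SE 0.0247, adjusted p = 1.8e-67). Both differences exceeded the spread within the groups, which did not overlap.

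The other eIF3 subunits lay between these. Eif3k, Eif3i and Eif3c were lower by 0.77, 0.48 and 0.47 on the log2 scale. Eif3b, an RNA-binding scaffold subunit, stood at 436 ± 2.70 CPM with LINC01133 and 369 ± 8.01 CPM in the controls (0.24). Eif3e and Eif3g were higher by 0.17 and 0.13, and Eif3h was lower with TMM (-0.19) but above 0 and not called with library size alone (0.06). Eif3d, Eif3l and Eif3m were not called with TMM, with log2 fold changes between 0.00 and 0.04 in size, but were called higher with library size alone (0.27, 0.24 and 0.28) and with upper quartile (0.13, 0.09 and 0.14). The exons of Eif3d share 43.3% of their bases with the antisense gene Gm17638, so its reads are uncertain.

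Per kilobase, the order of the 12 subunits Eif3a to Eif3m differed between the groups. With LINC01133 levels ran from 28.3 CPM per kilobase (Eif3k) to 147 (Eif3b), and in the controls from 41.6 (Eif3a) to 197 (Eif3f). Eif3f and Eif3c led in the controls at 197 ± 0.751 and 192 ± 1.76 CPM per kilobase in that order, while with LINC01133 Eif3b led and Eif3h and Eif3c followed at 139 ± 1.94 and 138 ± 1.03, which did not differ beyond their spread. The ratio of Eif3a to Eif3f reads per kilobase was 0.722 ± 0.00480 with LINC01133 and 0.211 ± 0.00525 in the controls.

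**Figure D2:**
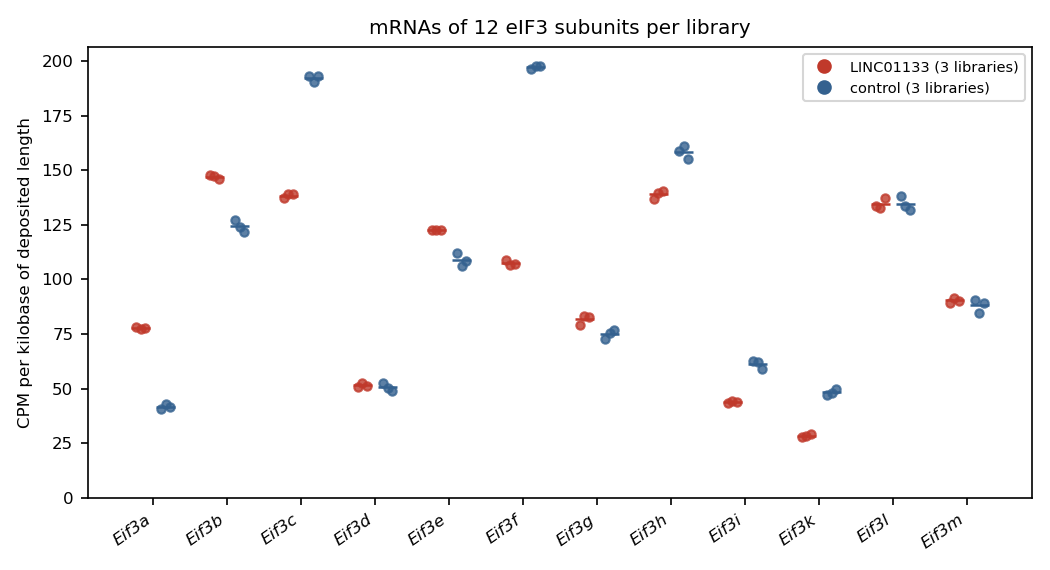
CPM per kilobase of deposited gene length for 12 eIF3 subunit mRNAs; each point is a library (red LINC01133, blue control) and each bar a group mean. Eif3a is higher and Eif3c, Eif3f, Eif3i and Eif3k are lower with LINC01133, while Eif3d, Eif3l and Eif3m overlap.

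The loosely bound subunit eIF3j has paired gene copies in the mouse. Eif3j1 stood at 16.95, 17.2 and 17.7 CPM with LINC01133 and at 10.5, 9.91 and 10.7 CPM in the controls (0.74, SE 0.0782, adjusted p = 5.8e-16). Its exons share 19.0% of their bases with Spg11 on the opposite strand, which was lower (-0.52). Eif3j2 stood at 1.80, 1.41 and 1.42 CPM with LINC01133 and at 1.48, 1.12 and 1.19 CPM in the controls, and was not called (0.27, SE 0.239, adjusted p = 0.28). These copies are close in sequence, as are Eif1a and Eif1ax, and how reads that match both were assigned is not known here.

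eIF4F binds the mRNA cap: eIF4E holds the cap, eIF4G is the scaffold and eIF4A the helicase. Of 11 tested members whose symbol begins with Eif4, some of them not part of eIF4F, 5 were higher (45.5%, background 44.5%) and 5 lower (45.5%, background 40.5%). The cap-binding gene Eif4e (uc057brb.1, chromosome 3, 138526179 to 138559696) stood at 76.7, 77.2 and 77.3 CPM with LINC01133 and at 98.8, 107 and 97.5 CPM in the controls (-0.39, SE 0.0340, adjusted p = 4.8e-21). Eif4e2, which encodes the homologue 4EHP that binds caps without recruiting eIF4G and can repress translation, stood at 105, 103 and 106 CPM with LINC01133 and at 85.5, 80.4 and 86.6 CPM in the controls (0.32, SE 0.0331, adjusted p = 2.3e-16). The opposite moves changed which of them was more abundant per kilobase: Eif4e held 43.2% ± 0.331 of the family's reads per kilobase with LINC01133 and 55.3% ± 2.26 in the controls, and Eif4e2 56.7% ± 0.354 and 44.5% ± 2.12.

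The remaining Eif4e homologues were nearly silent. Eif4e3 had 2 counts over the LINC01133 libraries and 9 over the controls. Eif4e1b, known from oocytes, had 12 counts over the LINC01133 libraries, 6 each in replicates 2 and 3, and none in the controls, where 3 counts over the group would be 0.0418 CPM. Both fell under the count filter. In the fit without that filter Eif4e1b was called higher (adjusted p = 0.0095), although its first LINC01133 library also had no read, and Eif4e3 was not called (adjusted p = 0.066). No fold is given for Eif4e1b, since the controls had no read.

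The helicase genes both rose, by unequal amounts. Eif4a1, the abundant form, stood at 572, 572 and 571 CPM with LINC01133 and at 534, 545 and 542 CPM in the controls (0.08, SE 0.0210, adjusted p = 0.00019). Eif4a2 (uc007yte.3, chromosome 16, 23107444 to 23114136) stood at 422, 414 and 411 CPM with LINC01133 and at 299, 283 and 300.3 CPM in the controls (0.50, SE 0.0230, adjusted p = 3.7e-44). Eif4a1 therefore held 76.6% ± 0.222 of the pair's reads per kilobase with LINC01133 and 81.4% ± 0.601 in the controls. Eif4a3, a helicase of the exon junction complex rather than of eIF4F, was lower with TMM (-0.26) and not called with library size alone (-0.01).

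Of the scaffold genes, Eif4g1 stood at 1130, 1130 and 1117 CPM with LINC01133 and at 1270, 1279 and 1271 CPM in the controls, lower with TMM (-0.18, adjusted p = 1.1e-15) and higher with library size alone (0.07). Eif4g3 likewise stood at 113.5, 113.5 and 114 CPM with LINC01133 and at 135, 129.6 and 128 CPM in the controls, lower with TMM (-0.20) and above 0 but not called with library size alone (0.04). Eif4g2 (DAP5), a relative that lacks the eIF4E-binding part and serves cap-independent initiation, stood at 1925, 1887 and 1909 CPM with LINC01133 and at 1821, 1810 and 1838 CPM in the controls (0.06, SE 0.0185, adjusted p = 0.00081). The share within the family needs no scaling, and Eif4g1 held 44.3% ± 0.294 with LINC01133 and 48.3% ± 0.261 in the controls, against 53.2% ± 0.297 and 49.0% ± 0.273 for Eif4g2.

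The helicase cofactors moved apart. Eif4b stood at 600.3, 599.7 and 594 CPM with LINC01133 and at 839, 858 and 817 CPM in the controls (-0.49, SE 0.0206, adjusted p = 4.4e-48), the lowest log2 fold change of the eIF4 members. Eif4h, a related stimulator of eIF4A, was higher, at 422 ± 2.80 CPM with LINC01133 and 358 ± 5.05 CPM in the controls (0.24). Eif4enif1 was not called with TMM, at 92.6 ± 0.638 CPM with LINC01133 and 93.4 ± 1.75 CPM in the controls, and was called higher with library size alone (0.23).

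**Figure D3:**
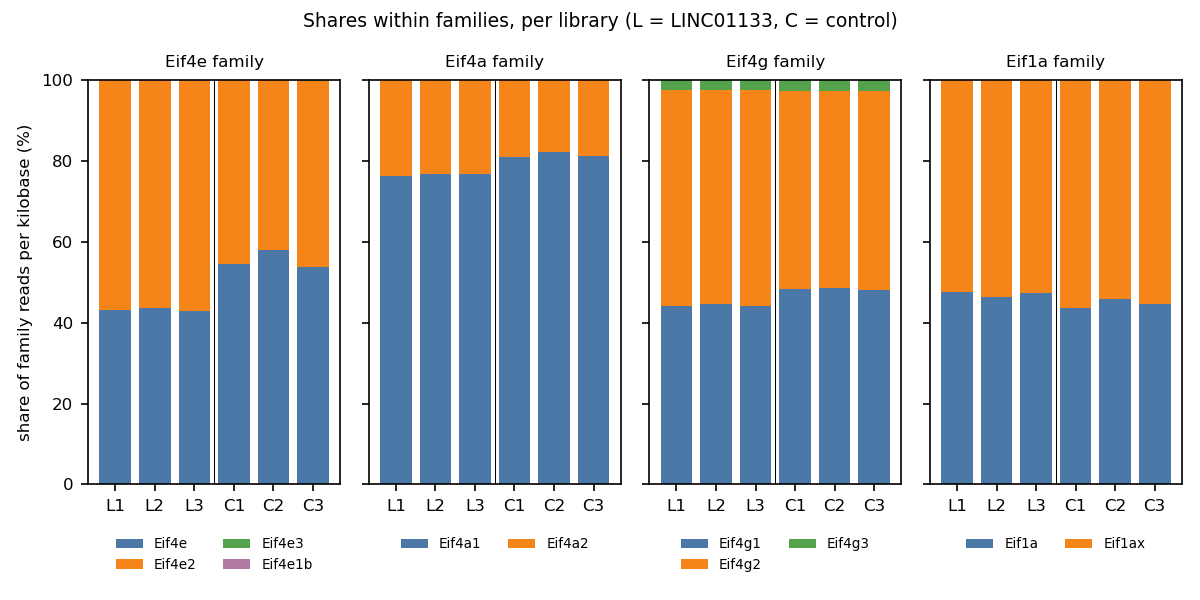
Share of the reads per kilobase of a gene family held by each of its members, in percent, for each library (L1 to L3 LINC01133, C1 to C3 control). Eif4e held 42.9% to 43.5% of its family with LINC01133 and 53.7% to 57.9% in the controls, and Eif4a1 held 76.4% to 76.8% with LINC01133 and 81.0% to 82.1% in the controls; Eif4e3 and Eif4e1b are too thin to be seen.

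The genes Eif5 and Eif6 were higher and Eif5a was lower. Eif5, which encodes the protein that makes eIF2 hydrolyse GTP at the start codon (uc007pdd.2, chromosome 12, 111538016 to 111546752), stood at 506.7, 506.8 and 508 CPM with LINC01133 and at 335, 342 and 344 CPM in the controls (0.58, SE 0.0220, adjusted p = 8.8e-53). Eif6, which keeps the large subunit from joining too early and is needed for its assembly, stood at 239 ± 9.67 CPM with LINC01133 and 168 ± 4.12 CPM in the controls (0.51, SE 0.0264, adjusted p = 7.2e-39). Eif5a carries hypusine, an amino acid made by the enzymes DHPS and DOHH, and helps the ribosome through stalling sequences. It stood at 596, 590.1 and 575 CPM with LINC01133 and at 732, 735 and 739 CPM in the controls (-0.33, SE 0.0206, adjusted p = 2.3e-31). Its relative Eif5a2 had 8 counts over the LINC01133 libraries and 11 over the controls and was not tested.

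Among elongation factors, the abundant tRNA carrier and the translocase were lower, while most exchange factor subunits were higher. Eef1a1, which delivers aminoacyl-tRNA to the ribosome (uc009qun.1, chromosome 9, 78478449 to 78489151), had the highest level per length of all members in both groups. It stood at 2435, 2428 and 2394 CPM with LINC01133 and at 3785, 3732 and 3612 CPM in the controls, 1.53-fold lower (-0.62, SE 0.0182, adjusted p = 2.6e-65). Per kilobase this was 1351 ± 12.4 CPM with LINC01133 and 2072 ± 49.4 CPM in the controls. Eef1a1 has many processed copies in the genome, which can share or take its reads, so its level is uncertain.

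Eef1a2, the form of muscle and neurons, had the lowest log2 fold change of all members at a very low level: 4, 10 and 5 counts with LINC01133 and 25, 26 and 18 counts in the controls (-2.30, SE 0.397, adjusted p = 8.4e-08). Every LINC01133 library lay below every control. Its share of the pair's reads per kilobase lay between 0.00488% and 0.0254% in the 6 libraries, so that Eef1a1 stood for nearly the whole pair in both groups.

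The eEF1B complex recharges eEF1A with GTP, and its subunits split. Eef1b2, for the catalytic alpha subunit, stood at 231 ± 2.30 CPM with LINC01133 and 312 ± 14.8 CPM in the controls (-0.43, adjusted p = 9e-35). Eef1d and Eef1g, for the delta and gamma subunits, were higher by 0.27 and 0.23 on the log2 scale, at 123 ± 1.87 and 183 ± 4.48 CPM with LINC01133 and 102 ± 3.01 and 155 ± 4.71 CPM in the controls. Eef1e1, which encodes a scaffold of the tRNA synthetase complex (AIMP3), stood at 51.1, 51.2 and 51.5 CPM with LINC01133 and at 35.5, 38.7 and 33.9 CPM in the controls (0.51, SE 0.0471, adjusted p = 2.4e-19). Eef1akmt1, for a lysine methyltransferase of eEF1A, was lower, at 9.98 ± 0.712 CPM with LINC01133 and 13.5 ± 1.26 CPM in the controls (-0.43).

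Eef2 (uc007gge.2, chromosome 10, 81176631 to 81182498), whose E-box stretch is printed above, was the member with the smallest p. It stood at 2384, 2449 and 2406 CPM with LINC01133 and at 5710, 5524 and 5580 CPM in the controls, 2.32-fold lower (-1.22, SE 0.0180, adjusted p = 3.1e-101). With library size alone the log2 fold change was -0.97. The ratio of Eef2 to Eef1a1 reads per kilobase was 0.574 ± 0.00938 with LINC01133 and 0.870 ± 0.0187 in the controls, and no scaling of the libraries changes this ratio.

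Eef2k encodes the calcium- and calmodulin-dependent kinase that phosphorylates eEF2 and so slows elongation. It stood at 13.7, 12.6 and 12.8 CPM with LINC01133 and at 28.6, 27.5 and 29.9 CPM in the controls, 2.20-fold lower (-1.14, SE 0.0659, adjusted p = 8.1e-35), and with library size alone the log2 fold change was -0.90. Kinase and substrate mRNAs were both lower. The ratio of Eef2k to Eef2 reads per kilobase was 0.00250 ± 0.000138 with LINC01133 and 0.00237 ± 9.55e-05 in the controls, which overlapped. Eef2kmt, for a methyltransferase of eEF2, had 23 counts over the LINC01133 libraries and 26 over the controls and was not tested.

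**Figure D4:**
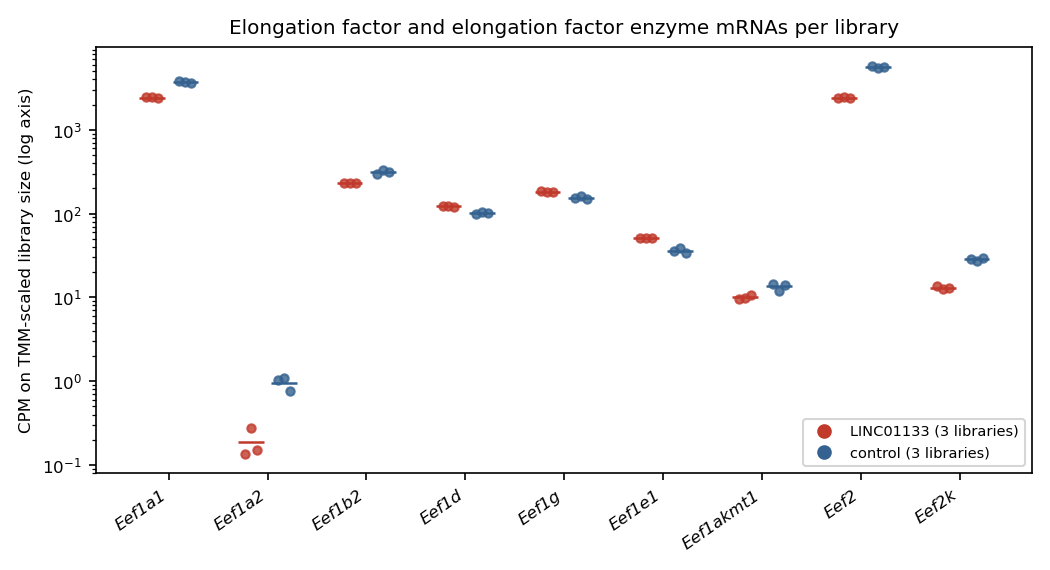
CPM per library on a log axis for elongation factor mRNAs and the enzymes that act on them; each point is a library (red LINC01133, blue control) and each bar a group mean. Eef1a1, Eef1a2, Eef1b2, Eef1akmt1, Eef2 and Eef2k are lower and Eef1d, Eef1g and Eef1e1 higher with LINC01133, with no overlap of the groups.

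Regulators of the factors, which are not among the members, were counted from lists chosen with earlier results of these data known. Of 8 genes of eIF2 phosphorylation and its response 6 were higher (background 44.5%) and 2 lower (background 40.5%). Their median was 0.55, against 0.05 over all genes tested. Ppp1r15a (GADD34), which brings a phosphatase to eIF2, stood at 96.3 ± 1.22 CPM with LINC01133 and 30.9 ± 0.716 CPM in the controls (1.64). The heme-regulated kinase gene Eif2ak1 was higher (0.72), as was Atf4 (0.39), whose translation rises when eIF2 is phosphorylated. The RNA-activated kinase gene Eif2ak2 (PKR) was lower (-1.03), and so was the amino acid sensor Eif2ak4 (GCN2, -0.64), so the eIF2 kinases did not share a direction.

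Of 16 tested genes of mTORC1 and cap-binding control 7 were higher (background 44.5%) and 7 lower (background 40.5%), with a median of -0.01. With library size alone 10 were higher (background 55.6%) and 3 lower (background 30%). Both tested 4E-BP genes, whose products hold eIF4E away from eIF4G, were lower: Eif4ebp1 stood at 48.1 ± 0.779 CPM with LINC01133 and 172 ± 6.12 CPM in the controls (-1.84, adjusted p = 9.3e-91), and Eif4ebp2 at 47.0 ± 2.55 and 83.6 ± 2.84 CPM (-0.83). Cyfip1, which encodes another eIF4E-binding protein, was lower as well (-0.57). Pdcd4, for an inhibitor of eIF4A, stood at 16.8 ± 0.299 CPM with LINC01133 and 6.57 ± 0.912 CPM in the controls (1.36). The eIF4E kinase gene Mknk2 (0.61) and the S6 kinase gene Rps6kb1 (0.36) were higher.

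Among 17 tested genes of poly(A) binding, helicases, termination and recycling, 7 were higher (background 44.5%) and 9 lower (background 40.5%), with a median of -0.16. With library size alone 9 were higher (background 55.6%) and 6 lower (background 30%). Pabpc1, the main poly(A)-binding protein, stood at 1474 ± 13.4 CPM with LINC01133 and 2345 ± 28.7 CPM in the controls (-0.67), and Pabpc4 (-0.80) and Abcf1 (-0.62) were also lower. Hbs1l, for a ribosome rescue factor, was higher (0.77), as were the helicase gene Dhx29 (0.37) and the release factor gene Etf1 (0.13). The enzymes that modify eIF5A and eEF2 had 2 genes higher (background 44.5%) and 6 lower (background 40.5%) of 8, with a median of -0.28. Dhps, which starts the making of hypusine, stood at 28.7 ± 0.663 CPM with LINC01133 and 53.9 ± 2.00 CPM in the controls (-0.91), and Dohh was lower too (-0.29). Of the diphthamide genes, Dph5 was lower (-0.90) and Dph2 and Dph3 were higher (0.84 and 0.18). All other diphthamide genes tested were called lower (-0.38 to -0.17). With library size alone 2 of these 8 genes were higher (background 55.6%) and 2 lower (background 30%).

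The mitochondrial counterparts of these factors had 3 genes higher (background 44.5%) and 4 lower (background 40.5%) of 8 tested, with a median of -0.26. With library size alone 4 were higher (background 55.6%) and 4 lower (background 30%). The genes Gfm1 and Gfm2 and the exchange factor gene Tsfm were lower (-1.36, -0.97 and -0.998). Gfm1 stood at 48.9 ± 2.10 CPM with LINC01133 and 126 ± 1.67 CPM in the controls. Mtrf1l, Mtrf1 and Mtif3, for release factors and an initiation factor, were higher (0.75, 0.25 and 0.16). Of 68 tested mitochondrial ribosomal protein genes, 32 were lower (background 40.5%) and 14 higher (background 44.5%), and the median was -0.12. Scaling by library size alone turned this split around. It gave 34 higher (background 55.6%) and 17 lower (background 30%), and the median changed sign to 0.12. The direction of this list therefore depended on the scaling.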

How the data were processed

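Total RNA of 4T1 cells was sequenced from TruSeq libraries, as the labels' protocols state, with 3 libraries per group. The authors deposited 1 table of raw counts, whole numbers, in which each row has a UCSC transcript identifier and a length, per the file headers. The submitters' processing notes name mm10 and bcl2fastq; which aligner and counting tool were used, and whether strand was used, is not stated there or in the labels. The number of columns of no sample was 0. Separate cultures are not named for the libraries of a group. The p-values therefore reflect only how these libraries vary, which may be technical. Replicates differed by more than sampling noise (chi-square per degree of freedom 1.61 to 2.32 over 6 pairs).

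Where a symbol repeated, as for Eef1d, the row with the highest mean was kept. All genes were fitted in R 4.3.3 by edgeR's quasi-likelihood test (version 4.0.16), after TMM and filterByExpr and with the robust option, LINC01133 against control; the SE is the log2 fold change over the root of F. The script was tested on simulated data. Shares, ratios and lists are descriptions with no test; the ratios between members were chosen after their values were seen. Per-library values are given for members called with at least a 2-fold difference, the 5 highest per length, the families of copies, and the highest and lowest log2 fold change of each role, and up to 3 genes per direction and list are named by smallest p; other genes are given by counts and ranges or by their means. The members and lists were chosen with earlier results of these data known. The summed level of the leukocyte markers is not reported here. Floors cover counting error only. Positions are from GENCODE M21 on GRCm38, the assembly of mm10, and figures were drawn with matplotlib 3.10.9. Alternatives were other scalings, filters, thresholds and tests (DESeq2 1.42.0, limma voom 3.58.1), the replicate number as a block, each library left out, repeated rows summed and Rn45s left out.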

Additional observations from a re-analysis of the deposited data

How the results depend on the processing

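Of the 44 called members, 40 kept their call and direction under every one of 18 alternatives that gave a value; the exceptions, all with library size alone, were Eif3h, Eif4a3, Eif4g1 and Eif4g3. Library size alone gave log2 fold changes of 0.0575 for Eif3h, 0.0667 for Eif4g1, 0.0425 for Eif4g3, 0.241 for Eif3l and 0.232 for Eif4enif1, of the opposite sign to TMM, and -0.0113 for Eif4a3, not called. It gave 2 members called and at least 2-fold higher and 1 lower, against 0 and 4 with TMM. The share of all genes at this size was not computed with library size alone. The fit without a count filter gave 1 member higher, Eif4e1b. Eif3l and Eif4enif1, not called with TMM, also changed sign with RLE (0.00996 and 0.00170), DESeq2 (0.00996 and 0.00170), upper quartile (0.0947 and 0.0864) and the filter of 1 CPM in 3 libraries (0.0275 and 0.0193), and Eif3l without Rn45s (0.00366). The cause of these changes was not tested. Members called higher numbered 33 with library size alone, 31 with upper quartile and 29 with the CPM filter, against 24 with TMM. Over all genes 6280 of 14116 were higher with TMM, 7847 with library size alone and 6919 with upper quartile. With the CPM filter 5552 of 12470 genes were higher. The CPM filter left Eef1a2 untested.

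With each library left out in turn, all 44 called members kept their call and direction, and 24 to 25 members were higher and 20 to 21 lower, counting Eif2s3y, which was under the count filter with all libraries and was called lower without LINC01133 replicate 3 (-1.31) and without control replicate 1 (-1.23). Among members not called, Eif3l ranged from -0.0261 to 0.0118 and Eif3d from -0.00240 to 0.0521. The share of Eif1 in its pair differed by -0.383 percentage points, and by -1.03 to 0.621 with a library left out; it was above 0 without control replicate 2. The share of all counts held by the members differed by -0.143 percentage points, and by -0.350 with Rn45s out of the total. Replicate numbers did not pair the libraries, since same-numbered ones correlated at -0.0382 to 0.0101, and with the replicate block 24 members were higher and 20 lower. Depth limits Eif4e3, Eif5a2, Eif2s3y and Eef2kmt, which were not called without the count filter (adjusted p = 0.0582 to 0.36).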
